A study of Mus musculus with 45 samples.

Results

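The genes described here are 10 genes of brain pericytes: Pdgfrb, Cspg4, Kcnj8, Abcc9, Rgs5, Atp13a5, Vtn, Enpep, Art3 and Higd1b. They were picked by symbol from the 24421 genes of each count table, either as known pericyte markers or because their counts had been seen higher in the isolated cells of ethanol mice than in those of water mice. The difference between ethanol and water in isolated cells therefore chose the genes. It is given below as a description, and nothing is read from the calls in it. The study measured poly(A) RNA by sequencing in C57BL/6J mice, in the medial part of the prefrontal cortex, and the labels used here give neither sex nor age. Water mice drank water for 72 days. Ethanol mice had a 15% (v/v) ethanol solution every other day over the same 72 days and the tissue was taken 24 h after their last drinking day. Each mouse could give a pair of libraries. The homogenate was 5% of the minced tissue suspension, taken before dissociation. The isolated cells were the dissociated remainder after a Percoll step against myelin and capture on beads that bind ACSA2, an astrocyte surface antigen. The 44 libraries analysed came from 24 mice, of which 20 gave both fractions: 12 homogenates and 10 isolated libraries of water mice, and 12 and 10 of ethanol mice. An isolated library of water mouse 72 was not analysed here.

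Pericytes are mural cells that sit in the basement membrane around capillaries, in contact with endothelial cells on the inner side and with astrocyte endfeet on the outer side. Endothelial cells secrete the growth factor PDGF-BB, which recruits pericytes through the receptor encoded by Pdgfrb, and Notch signalling between the same cells acts in the differentiation of mural cells. In the brain, pericytes are known for their part in forming the blood-brain barrier and in capillary tone.

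Levels are in CPM, read counts divided by the total gene count of the library and scaled to 1000000. Total gene counts ran from 3673811 to 9109247 in homogenates and from 504492 to 3248804 in isolated libraries, where 5 water libraries and 0 ethanol libraries held under 1000000. The bound that a count of 0 would set, taken as 3 counts, was 0.329 to 0.817 CPM in single homogenates and 0.923 to 5.95 CPM in single isolated libraries, counting error only. Every one of the 10 genes had more than 3 counts in every library and passed the expression filter in every comparison. The lowest count was 4, for Higd1b in the homogenate of ethanol mouse 61. The isolated libraries, labelled as astrocytes, did not hold astrocyte RNA alone. Against the homogenate of water mice, 11 of 14 astrocyte markers rose and 1, Gfap, fell (median log2 fold change 0.96). All 10 microglial markers (median 3.70), all 10 oligodendrocyte markers (3.25), all 12 endothelial markers (1.35) and all 6 smooth muscle markers tested (2.21) were also higher, and all 10 neuronal markers were lower (-4.05). Of all 13434 genes tested in that comparison, 37.2% were called higher and 40.3% lower.

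All 10 pericyte genes were higher in isolated cells than in homogenate, in water mice and in ethanol mice. In water mice the fold changes ran from 2.75-fold for Cspg4 to 9.82-fold for Abcc9, and in ethanol mice from 4.11-fold to 14.2-fold for the same genes. With edgeR's quasi-likelihood test and Benjamini-Hochberg adjustment over all genes tested (FDR under 0.05), 10 of 10 were called higher in water mice, against 37.2% of the 13434 genes tested there. In ethanol mice 10 of 10 were called higher, against 39.8% of 13489. The median log2 fold change of the 10 genes was 3.02 in water mice, where the median of all genes tested was -0.05. For every one of the 10 genes the lowest isolated library lay above the highest homogenate in both water and ethanol mice, a separation seen for 17.6% and 24.4% of all genes tested. The same isolated libraries took part in choosing the genes. A gene picked for a low level in the water libraries would come out lower here in water mice, and a gene picked for a high level in the ethanol libraries would come out higher in ethanol mice. In bulk libraries a larger share of pericytes and more RNA per pericyte cannot be told apart.

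**Figure D1:**
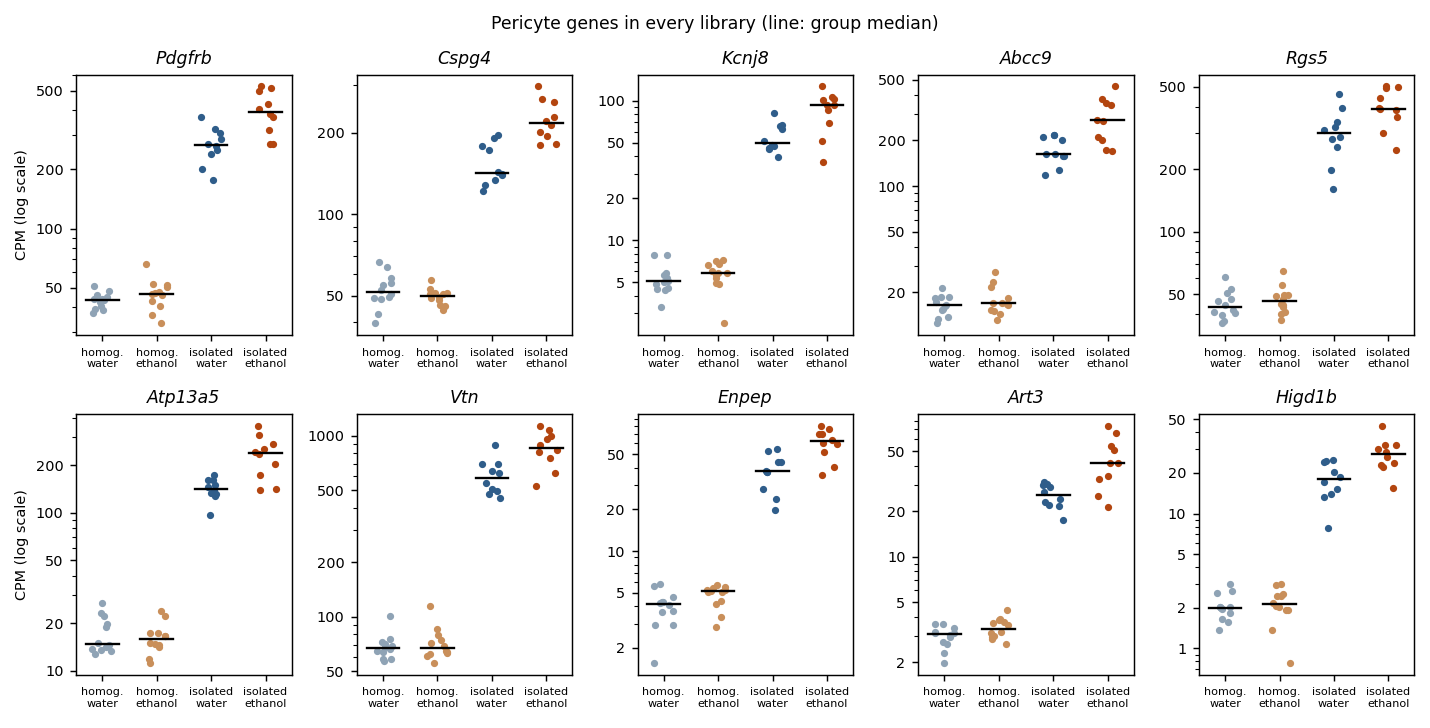
Level in CPM (log axis) of the 10 pericyte genes in each of the 44 libraries, by fraction and drinking group. Each point is 1 library and each line a group median; for all 10 genes every isolated library lies above every homogenate, and the isolated libraries of water and ethanol mice overlap.

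Pdgfrb and Cspg4 encode receptors or coreceptors at the pericyte surface. Pdgfrb, the receptor tyrosine kinase for PDGF-BB, ran from 37.1 to 51.1 CPM (median 43.7) in the homogenates of water mice and from 33.1 to 65.9 (median 46.7) in those of ethanol mice. In isolated cells its range was 177 to 369 CPM (median 266) in water mice and 269 to 527 (median 392) in ethanol mice. The homogenates of ethanol mice spread more widely, between mouse 65 at the low end and mouse 75 at the high end. The log2 fold change of Pdgfrb from homogenate to isolated cells was 2.53 ± 0.10 (SE) in water mice (edgeR FDR 1.15e-18) and 2.95 ± 0.12 in ethanol mice (8.5e-19).

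Cspg4 encodes the NG2 proteoglycan, which pericytes share with oligodendrocyte precursors. Its level was 39.6 to 66.9 CPM (median 51.5) in water homogenates and 44.3 to 57.0 (median 50.0) in ethanol homogenates. Isolated libraries held 122 to 197 CPM (median 142) in water mice and 181 to 296 (median 217) in ethanol mice. The log2 fold change between the fractions was the smallest of the 10 genes, 1.46 ± 0.10 in water mice (edgeR FDR 2.25e-13) and 2.04 ± 0.08 in ethanol mice (2.54e-19). In both drinking groups Cspg4 was higher in every isolated library than in any homogenate, by a narrower gap, taken as a ratio of CPM, than the other genes.

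Because oligodendrocyte precursors also make Cspg4, its ratio to Pdgfrb counts was compared between the fractions. The ratio shows, library by library, the gap between the fold changes just given, and is not separate from them. It ran from 1.01 to 1.43 (median 1.22) in water homogenates and from 0.382 to 0.861 (median 0.554) in water isolated libraries. In ethanol mice it ran from 0.779 to 1.35 (median 1.07) and from 0.403 to 0.674 (median 0.570). The fractions did not overlap in either drinking group. On the log2 CPM scale (prior count 2) the ratio was lower in isolated cells by -1.05 ± 0.13 in water mice and -0.91 ± 0.10 in ethanol mice. A two-sided permutation test of 100000 resamples gave p = 1e-05 in each, the smallest value it can give. After adjustment over the 4 ratio comparisons it was 2e-05. That test shuffled libraries as independent, although 10 mice in each drinking group gave both fractions. A test that flipped the signs of the differences within these 10 mice gave p = 0.00195 in each drinking group. Of the 10 markers listed for oligodendrocyte precursors, 3 were called higher and 4 lower in isolated cells of water mice, shares near those of all genes tested, with a median of -0.47. The higher ones were the transcription factor genes Olig2 (2.02 ± 0.14), Sox10 (2.80 ± 0.19) and Olig1 (1.86 ± 0.15), which oligodendrocytes also express, and the lower ones included Pcdh15 (-1.57 ± 0.19). Pdgfra, a receptor gene that marks these precursors, had a median of 79.4 CPM in water homogenates and 54.0 CPM in water isolated libraries, a log2 fold change of -0.28 ± 0.25 (edgeR FDR 0.299). The part of oligodendrocyte precursors in the ratio was not tested.

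**Figure D2:**
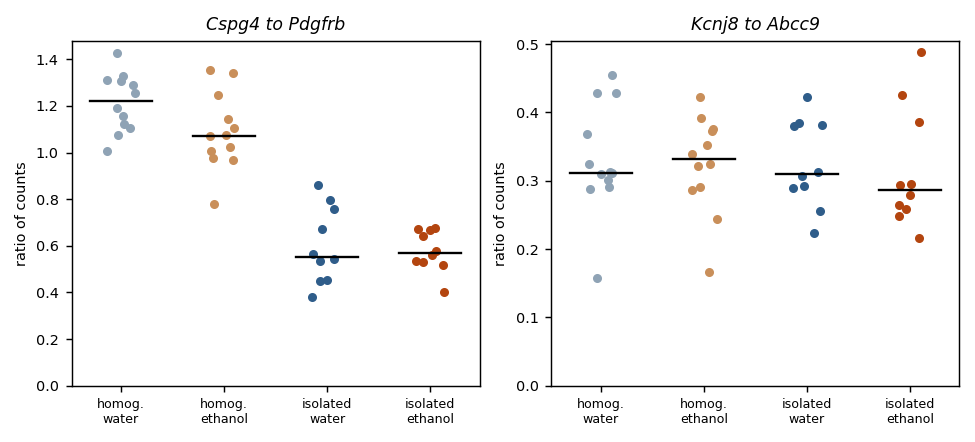
Ratio of read counts within each library for Cspg4 to Pdgfrb (left) and Kcnj8 to Abcc9 (right), by fraction and drinking group, with each point 1 library and each line a group median. The left ratio has medians of 1.22 and 1.07 in homogenates and 0.554 and 0.570 in isolated cells, whereas the right ratio has medians between 0.286 and 0.332 in all groups.

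Kcnj8 and Abcc9 encode the pore subunit Kir6.1 and the regulatory subunit SUR2 of a potassium channel that opens when ATP falls. The genes are neighbours on the minus strand of chromosome 6, 16247 bases apart in the GENCODE annotation of GRCm38. Promoter windows of 300 bases, from 250 bases before to 50 bases after the start site, were taken from RefSeq on GRCm38.p6, which gave 10 windows for 8 of the 10 genes. They were searched on both strands for TGGGAA, the core motif of the Notch effector RBPJ, because Notch acts in mural cells. The windows of this channel pair are shown with that of Atp13a5, the gene that varied most closely with Abcc9 among isolated libraries. Capitals mark TGGGAA, which begins at base 251, the start site, in Kcnj8 and at base 30 in Abcc9, and is absent from the window of Atp13a5.
Kcnj8, chr6:142571565-142571864, minus strand: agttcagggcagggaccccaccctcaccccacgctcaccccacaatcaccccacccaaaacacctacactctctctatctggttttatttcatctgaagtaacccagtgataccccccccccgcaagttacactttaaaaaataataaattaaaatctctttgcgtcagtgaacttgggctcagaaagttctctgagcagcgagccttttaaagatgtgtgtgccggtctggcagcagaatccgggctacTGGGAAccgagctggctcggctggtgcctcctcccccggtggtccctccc
Abcc9, chr6:142702225-142702524, minus strand: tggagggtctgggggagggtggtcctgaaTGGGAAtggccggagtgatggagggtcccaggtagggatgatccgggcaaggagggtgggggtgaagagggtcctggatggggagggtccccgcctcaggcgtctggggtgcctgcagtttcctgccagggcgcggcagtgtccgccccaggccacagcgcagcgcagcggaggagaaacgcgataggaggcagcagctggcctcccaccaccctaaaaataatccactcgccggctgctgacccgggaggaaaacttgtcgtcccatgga
Atp13a5, chr16:29378683-29378982, minus strand: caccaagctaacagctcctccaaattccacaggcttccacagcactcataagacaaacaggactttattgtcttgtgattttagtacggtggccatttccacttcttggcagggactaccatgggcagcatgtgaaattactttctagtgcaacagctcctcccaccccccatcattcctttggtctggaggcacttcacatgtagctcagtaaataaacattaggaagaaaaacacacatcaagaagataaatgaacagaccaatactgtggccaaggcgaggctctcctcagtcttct
The motif was found in 4 of the 10 windows (40%), those of Kcnj8, Abcc9, Vtn and 1 of the 3 windows of Art3, against 25.6% of 32851 windows of all genes. Searched the same way, the forkhead motif TGTTTAC was in 0 of the 10 windows (3.65% of all windows), ACGTG in 1, of Art3 (19.6%), AGGTGTG in 1, of Enpep (5.84%), and TATAAA in 4 (40%, against 13.6%), those of Vtn and Enpep and 2 of the 3 windows of Art3. These are matches of letters, not measured binding sites.

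Kcnj8 was a low transcript in homogenate, at 3.36 to 7.90 CPM (median 5.09) in water mice and 2.55 to 7.24 (median 5.81) in ethanol mice. Isolated cells held 39.6 to 80.98 CPM (median 49.97) in water mice and 36.6 to 127 (median 92.9) in ethanol mice. Its lowest isolated value of all, in ethanol mouse 77, lay below every water library. The log2 fold change of Kcnj8 between the fractions was 3.28 ± 0.14 in water mice (edgeR FDR 1.01e-17) and 3.77 ± 0.17 in ethanol mice (2.9e-17). Abcc9 ran from 12.5 to 21.4 CPM (median 16.4) in water homogenates and from 13.2 to 27.4 (median 16.9) in ethanol homogenates. Its isolated range was 118 to 216 CPM (median 163) in water mice and 170 to 454 (median 271) in ethanol mice. Mouse 62 gave the highest ethanol isolated value for both channel genes. The log2 fold change of Abcc9, 3.30 ± 0.12 in water mice (edgeR FDR 7.53e-19) and 3.83 ± 0.17 in ethanol mice (6.23e-17), was the largest of the 10 genes in both.

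The ratio of Kcnj8 to Abcc9 counts had medians of 0.312 and 0.332 in the homogenates of water and ethanol mice and of 0.310 and 0.286 in the isolated libraries. The fractions overlapped in both drinking groups. The log2 difference of this ratio, isolated minus homogenate, was -0.09 ± 0.14 in water mice, with a 95% interval of 0.767 to 1.15 as a fold, and -0.13 ± 0.15 in ethanol mice, 0.736 to 1.140. The two-sided permutation test gave p = 0.56 and 0.406 (0.56 and 0.541 over the 4 ratio comparisons). No change in the ratio was called, and any fold inside those bounds is compatible with the values. The other pair of subunits of this channel family went the opposite way. Kcnj11, the pore subunit Kir6.2 of neurons and beta cells, had a median of 63.3 CPM in water homogenates and 3.32 CPM in water isolated libraries, and its log2 fold change was -4.41 ± 0.26 (edgeR FDR 9.19e-15). Abcc8, the regulatory subunit SUR1, had medians of 32.6 and 1.39 CPM and a log2 fold change of -5.15 ± 0.27 (7.36e-16). The isolated medians of both lay within the range of floors of single isolated libraries.

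Rgs5 and Atp13a5 are intracellular and transport genes that mark brain pericytes. Rgs5, which speeds the GTP hydrolysis of G protein alpha subunits, ran from 36.2 to 60.4 CPM (median 43.4) in water homogenates and from 37.5 to 64.7 (median 46.2) in ethanol homogenates. Isolated libraries held 161 to 462 CPM (median 298) in water mice and 248 to 502 (median 392) in ethanol mice. The water isolated libraries spread widely, with a coefficient of variation of 29.2%, between mouse 69 and mouse 82. Rgs5 had a log2 fold change of 2.64 ± 0.13 in water mice (edgeR FDR 4.09e-16) and 2.95 ± 0.12 in ethanol mice (6.24e-19). Atp13a5, a P5-type ATPase, lay at 12.7 to 26.7 CPM (median 14.7) in water homogenates and 11.2 to 23.7 (median 15.8) in ethanol homogenates. Its isolated values were 96.2 to 173 CPM (median 142) in water mice and 138 to 355 (median 237) in ethanol mice. The water isolated libraries of Atp13a5 kept closest together of the 10 genes, at a coefficient of variation of 15.5%, and the ethanol isolated libraries reached 30.4%. Its log2 fold change was 2.95 ± 0.13 in water mice (edgeR FDR 2.31e-17) and 3.69 ± 0.15 in ethanol mice (6.24e-18).

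Vtn, Enpep and Art3 encode proteins that are secreted or act at the cell surface. Vtn, the adhesive glycoprotein vitronectin, ran from 57.2 to 101 CPM (median 67.2) in water homogenates and from 55.8 to 114 (median 66.9) in ethanol homogenates. Isolated libraries held 452 to 888 CPM (median 585) in water mice and 527 to 1136 (median 859) in ethanol mice. A single homogenate stood highest in each drinking group, mouse 69 for water and mouse 75 for ethanol. For Vtn the log2 fold change was 3.03 ± 0.12 in water mice (edgeR FDR 2.04e-18) and 3.44 ± 0.12 in ethanol mice (7.45e-20). Enpep, the aminopeptidase that converts angiotensin II to angiotensin III, was at 1.57 to 5.79 CPM (median 4.18) in water homogenates and 2.82 to 5.73 (median 5.13) in ethanol homogenates. Its isolated range was 19.8 to 54.3 CPM (median 37.6) in water mice and 35.4 to 80.4 (median 61.9) in ethanol mice. The lowest homogenate value, in water mouse 67, rested on 7 counts. Enpep had a log2 fold change of 3.17 ± 0.17 in water mice (edgeR FDR 1.69e-15) and 3.53 ± 0.13 in ethanol mice (1.57e-19).

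Art3, of the ADP-ribosyltransferase family, ran from 1.98 to 3.58 CPM (median 3.06) in water homogenates and from 2.62 to 4.404 (median 3.34) in ethanol homogenates. Isolated cells held 17.6 to 31.6 CPM (median 25.5) in water mice and 21.3 to 74.1 (median 42.0) in ethanol mice. Its ethanol isolated libraries varied most of the 10 genes, at a coefficient of variation of 38.7%. Between the fractions Art3 had a log2 fold change of 3.001 ± 0.13 in water mice (edgeR FDR 2.73e-17) and 3.57 ± 0.17 in ethanol mice (2.19e-17). Its exons overlap those of the chemokine gene Cxcl10 on the opposite strand. Whether the counting used strand is not stated in the labels or notes, so reads from the overlap cannot be told apart. Cxcl10 had a median of 0 CPM in water homogenates and ran from 3.06 to 19.2 CPM in water isolated libraries and from 4.86 to 21.8 CPM in ethanol isolated libraries. Abcc9 likewise overlaps 5330439B14Rik, which had 0 counts in every library.

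Higd1b, of the HIG1 domain family, was the lowest transcript in homogenate in CPM, at 1.37 to 3.02 (median 2.00) in water mice and 0.783 to 2.9999 (median 2.13) in ethanol mice. Isolated libraries held 7.83 to 25.2 CPM (median 17.97) in water mice and 15.3 to 44.8 (median 27.5) in ethanol mice. The lowest isolated value, in water mouse 68, rested on 6 counts, and no homogenate held more than 23 counts of it. Its log2 fold change was 3.07 ± 0.18 in water mice (edgeR FDR 4.38e-15) and 3.51 ± 0.17 in ethanol mice (4.19e-17).

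**Figure D3:**
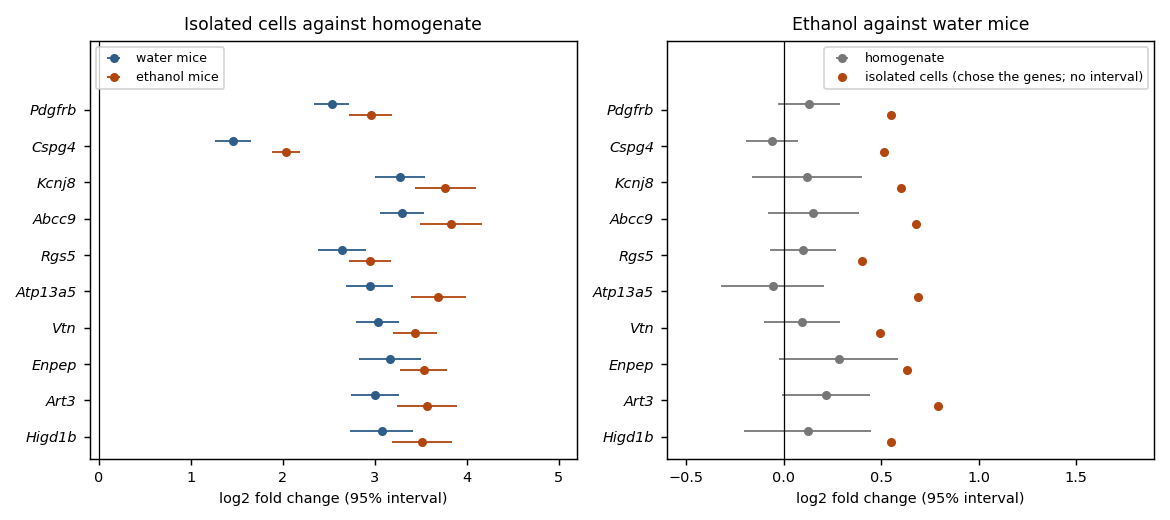
Log2 fold changes of the 10 genes from edgeR, isolated cells against homogenate (left) and ethanol against water mice (right), with 95% intervals except for the isolated ethanol contrast, which chose the genes. On the left the values run from 1.46 (Cspg4, water mice) to 3.83 (Abcc9, ethanol mice); on the right all homogenate intervals include 0 and the isolated values lie between 0.40 and 0.79.

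Within single mice the isolated library exceeded the homogenate for all 10 genes in 10 of 10 water mice and in 10 of 10 ethanol mice. The median ratio of CPM within a mouse ran from 2.80 for Cspg4 to 11.3 for Kcnj8 in water mice. In ethanol mice it ran from 4.403 for Cspg4 to 16.3 for Abcc9 and Kcnj8.

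Levels of different genes were ranked as CPM per kilobase of exon. In isolated cells of water mice the median was 288 CPM per kb for Vtn, 65.5 for Rgs5, 48.5 for Pdgfrb, 30.5 for Atp13a5, 21.2 for Higd1b, 19.6 for Kcnj8, 19.5 for Abcc9, 11.9 for Cspg4, 7.98 for Enpep and 6.49 for Art3. Of these neighbours in the order, Vtn and Rgs5 were the pair whose ranges did not overlap, and all others overlapped. Vtn also stood first in homogenates, with a median of 33.1 CPM per kb in water mice. In the homogenates of both drinking groups Cspg4 ranked above Atp13a5, at 4.32 CPM per kb in water mice, whereas in isolated cells it ranked below Abcc9.

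Pathway partners of the 10 genes were compared between isolated cells and homogenate of water mice, using lists written with earlier results of these data known. The counts stand against 37.2% of all genes tested called higher and 40.3% called lower. Of 20 other pericyte genes, 18 were called higher and 1 lower (median log2 fold change 2.51), among them Gper1 (2.99 ± 0.14) and P2ry14 (3.48 ± 0.18). Rgs4 was the lower one (-0.91 ± 0.25, chosen after its value was seen). Of the 11 genes of the mural Notch list, 10 were called higher and 1 lower. The receptor genes Notch3 (2.62 ± 0.11) and Notch1 (1.97 ± 0.10) and the target genes Hes1 (2.94 ± 0.16) and Heyl (2.69 ± 0.16) were higher. The target gene Hey1 was the lower one (-0.60 ± 0.17, chosen after its value was seen).

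Of 6 PDGF genes tested, 2 were called higher, a share near the 37.2% of all genes, and 0 lower. Beside Pdgfrb this was Pdgfb, the endothelial ligand of its receptor, which had a median of 56.7 CPM in water homogenates and 265 CPM in water isolated libraries (log2 fold change 2.11 ± 0.13, edgeR FDR 2.46e-14). The ligand genes Pdgfa (0.06 ± 0.13), Pdgfc (0.18 ± 0.18) and Pdgfd (0.41 ± 0.25) and the receptor gene Pdgfra (-0.28 ± 0.25) did not pass the test, and Pdgfrl did not pass the expression filter. Of 7 renin-angiotensin genes tested, Enpep included, 4 were called higher and 2 lower, with all genes again at 37.2% and 40.3%. The peptidase gene Anpep (2.04 ± 0.19) and, chosen after its value was seen, the angiotensinogen gene Agt (1.03 ± 0.29) were higher, and Ace, which makes angiotensin II (-1.12 ± 0.26), and the receptor gene Mas1 (-5.28 ± 0.57) were lower. Of 7 genes for vitronectin receptors and partners, 6 were called higher and 0 lower, among them the integrin genes Itgb5 (3.16 ± 0.11) and Itgb1 (1.76 ± 0.08) and the urokinase receptor gene Plaur (5.03 ± 0.20). Of 7 genes of the Rgs R4 family, Rgs5 included, 5 were called higher and 2 lower. Rgs1 (7.87 ± 0.25), Rgs3 (2.39 ± 0.16) and Rgs2 (1.77 ± 0.14) were higher, and Rgs8 (-4.79 ± 0.34) was lower. The median of Rgs1 in water homogenates, 0.342 CPM, lay under the floor of each of them (0.383 to 0.755 CPM). In water isolated libraries the median of Rgs8, 3.86 CPM, lay within the range of floors of single isolated libraries. That of Mas1, 0.738 CPM, lay below this range (0.923 to 5.95 CPM). The sizes of these fold changes therefore rest on values near the floor.

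In homogenate, ethanol was compared with water in libraries that took no part in choosing the genes. None of the 10 genes was called with edgeR's quasi-likelihood test (0 of 10, against 0% of 13576 genes tested). DESeq2 and limma voom called 0 of 10 as well. At an unadjusted p under 0.05 there were 0 of the 10 genes and 3.44% of all genes. The log2 fold changes ran from -0.06 ± 0.07 for Cspg4 to 0.28 ± 0.16 for Enpep. The FDR was 0.979 or 0.98 for each, and the lowest unadjusted p in the edgeR fit was 0.0807, for Enpep. Values lay above 0 for 8 of the 10 genes, against 47.7% of all genes, with a median of 0.12. The 95% interval of the fold was 0.875 to 1.05 for Cspg4, the narrowest of the 10 on the log2 scale, 0.981 to 1.22 for Pdgfrb, 0.801 to 1.15 for Atp13a5 and 0.985 to 1.50 for Enpep. Each of these intervals includes 1, and any fold inside an interval is compatible with the values of that gene.

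Several homogenate fold changes moved with single animals. Mouse 75 had the highest ethanol homogenate for Pdgfrb, Vtn, Rgs5 and Art3 and was among the highest 3 for 8 of the 10 genes. Without it the log2 fold change fell from 0.09 to 0.02 for Vtn, from 0.10 to 0.05 for Rgs5 and from 0.13 to 0.08 for Pdgfrb. The same homogenate was the highest of its group for the summed markers of endothelium (730 CPM, group median 443), smooth muscle (246, group median 62.6) and fibroblasts (454, group median 179). It was also the highest for astrocytes (12828 CPM, group median 11072) and microglia (729, group median 591). For neurons, oligodendrocytes, oligodendrocyte precursors and the other pericyte genes a different mouse was highest. The part of these cell types in the values of mouse 75 was not tested. For Abcc9 the highest ethanol homogenate was mouse 63, and without it the log2 fold change of 0.15 became 0.07. Mouse 65 was lowest for 6 of the 10 genes, and the sum over the 10 genes ran from 210 CPM in mouse 65 to 360 CPM in mouse 75.

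In isolated cells, the contrast that chose the genes, all 10 had higher means in ethanol than in water mice, and the groups overlapped for every gene. Values above 0 were also found for 49.6% of all genes. As a description, the log2 fold changes were 0.79 ± 0.18 for Art3, 0.69 ± 0.14 for Atp13a5, 0.68 ± 0.16 for Abcc9, 0.63 ± 0.15 for Enpep and 0.60 ± 0.17 for Kcnj8. They were 0.55 ± 0.18 for Higd1b, 0.55 ± 0.13 for Pdgfrb, 0.51 ± 0.11 for Cspg4, 0.49 ± 0.13 for Vtn and 0.40 ± 0.15 for Rgs5. At an FDR under 0.05 edgeR called 0 of the 10 genes and 0% of the 11122 genes tested, and limma voom likewise called 0. DESeq2 called 6 of the 10 genes and 0.265% of the 6783 genes it tested. With edgeR and without ethanol mouse 77, 6 of the 10 genes were called, among 14 of the 11136 genes tested. Without ethanol mouse 75 it was 2 of the 10, among 10 of 11233. Nothing is read from these counts, since the contrast chose the genes. For each gene between 8 and 10 of the 10 ethanol libraries lay above the water mean. For Cspg4 and Pdgfrb it was all 10, and 7 lay above the highest water library. For Rgs5, 3 ethanol libraries lay above the highest water library.

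The sum of the 10 genes ran from 1300 to 2215 CPM (median 1686) in water mice and from 1780 to 3538 CPM (median 2671) in ethanol mice. Mouse 62 was highest for 6 of the 10 genes and among the highest 3 for all 10. Mice 75 and 77 were among the lowest 3 ethanol libraries for all 10 genes, and their sums of 1780 and 1796 CPM lay inside the water range. Among water mice, mouse 73 was among the highest 3 for all 10 genes and mouse 69 below the median for all 10. By the sum of the 10 genes, mouse 75 was the lowest ethanol mouse in isolated cells and the highest in homogenate.

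**Figure D4:**
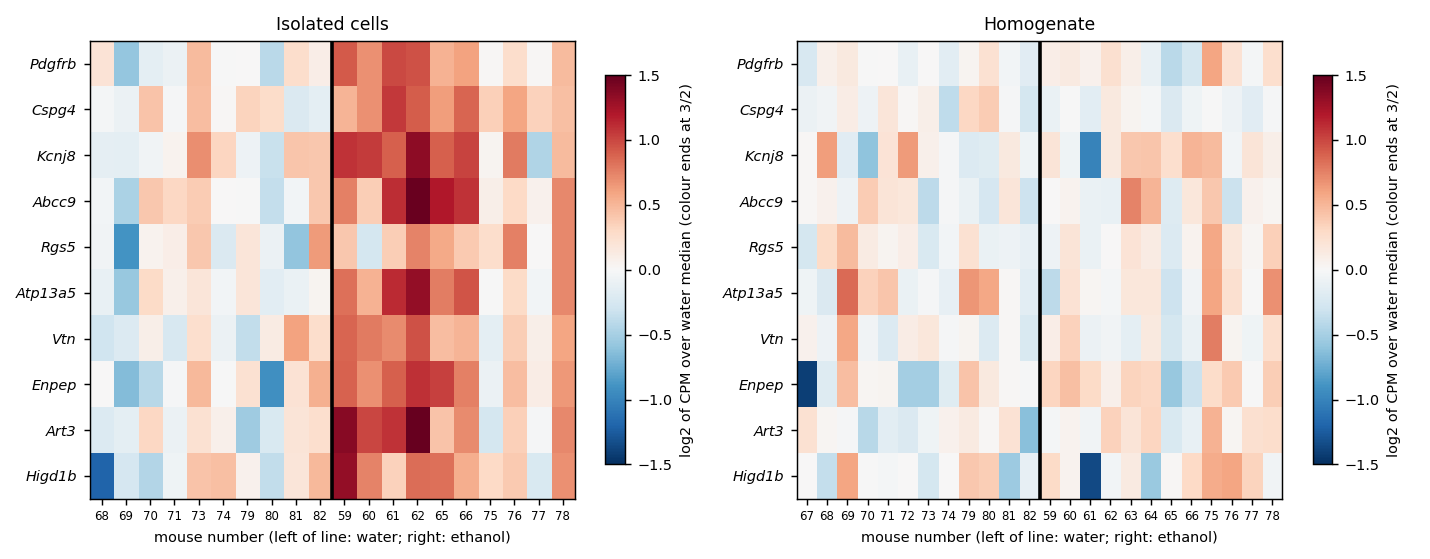
Log2 of the CPM of each gene in each library over the median of the water libraries of the same fraction, for isolated cells (left) and homogenate (right), with columns by mouse number and the colour scale ending at 3/2. In isolated cells most ethanol cells of the map are red, least so in mice 75 and 77, and in homogenate red and blue are mixed in both drinking groups.

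Other cell types gave these values for ethanol against water in isolated cells, beside the median of 0.58 of the 10 genes. Values above 0 were found for 49.6% of all genes. The lists were written with earlier results of these data known, so their values are a description too. The 20 other pericyte genes had a median log2 fold change of 0.51 and lay above 0 in 20 of 20. Their summed level ran from 921 to 1248 CPM in water mice and from 954 to 2040 CPM in ethanol mice. Among 6 smooth muscle genes tested the median was 0.24, with 5 above 0 and values from -0.01 to 0.43. The contractile genes Acta2 and Myh11 were at 0.01 ± 0.22 and -0.01 ± 0.24. Mean levels in water and ethanol mice were 66.1 and 91.6 CPM for Mylk and 64.5 and 81.2 CPM for Myl9. The smooth muscle sum ran from 171 to 354 CPM in water mice and from 214 to 495 CPM in ethanol mice. Of 12 endothelial genes 11 lay above 0, with a median of 0.17 and sums of 909 to 1634 CPM and 973 to 2373 CPM. Of 14 astrocyte genes 0 lay above 0 (median -0.28, sums of 10634 to 30206 CPM and 9827 to 18706 CPM). The medians were -0.17 for 10 microglial genes and -0.35 for 9 neuronal genes. For 10 oligodendrocyte genes the median was 0.06, for 9 oligodendrocyte precursor genes tested 0.04 and for 5 fibroblast genes tested 0.03. None of these differences passed an FDR under 0.05 in edgeR, and the part of these cell types in the values of the pericyte genes was not tested. Depth differed as well, since 5 water isolated libraries and 0 ethanol ones held under 1000000 counts. Without those 5 libraries the median of the 10 genes was 0.60.

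Most pairs of the 10 genes varied together among isolated libraries. After subtraction of group means from log2 CPM (prior count 2), Pearson's r over 20 isolated libraries lay above 0 for all 45 pairs, with a median of 0.58. In a permutation test within drinking groups 29 of the 45 pairs passed an FDR under 0.05. The share of pairs of other genes that would pass was not computed, so this count is a description. Every library enters through its own total count, which the values of a pair share. The closest pair was Abcc9 and Atp13a5, with r = 0.92 and Spearman's rho = 0.91 (permutation p = 2e-05 for each within drinking groups, 0.000225 and 0.00045 adjusted over the 45 pairs). Without the 2 libraries farthest from the median of Abcc9, r was 0.87. For the channel pair Kcnj8 and Abcc9, r was 0.70 and rho 0.64 (permutation p = 0.00106 and 0.00472, adjusted 0.00318 and 0.0133), and r was 0.56 without the 2 farthest libraries. The loosest pair was Cspg4 and Higd1b, with r = 0.06 and rho = 0.01 (permutation p = 0.796 and 0.973, the same after adjustment). Rgs5 and Cspg4 had the lowest mean r with the other 9 genes, 0.34 and 0.37, and Atp13a5 the highest, 0.67. Over the 9666 other genes ranked below, the mean r with the 10 genes had a median of 0.06 and a 95th percentile of 0.36, above the value of Rgs5.

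In the 24 homogenates the pairs had a median r of 0.29, with 41 of 45 above 0. Past the same FDR were 11 of 45, again without a share for pairs of other genes. The other genes ranked there had a median mean r of -0.00052 and a 95th percentile of 0.21. Rgs5 and Atp13a5 were the closest pair there (r = 0.69, rho = 0.62, permutation p = 0.00036 and 0.00212, adjusted 0.00698 and 0.0159), with r = 0.54 without the 2 farthest libraries. Kcnj8 had a mean r of 0.05 with the other 9 genes in homogenate and 0.66 in isolated cells. Its homogenate values rested on 13 to 56 counts. Higd1b (4 to 23 counts), Art3 (12 to 33) and Enpep (7 to 47) had mean r of 0.24, 0.29 and 0.27 there. Abcc9, at 62 to 188 counts, had 0.16. The part of low counts in these values was not tested.

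**Figure D5:**
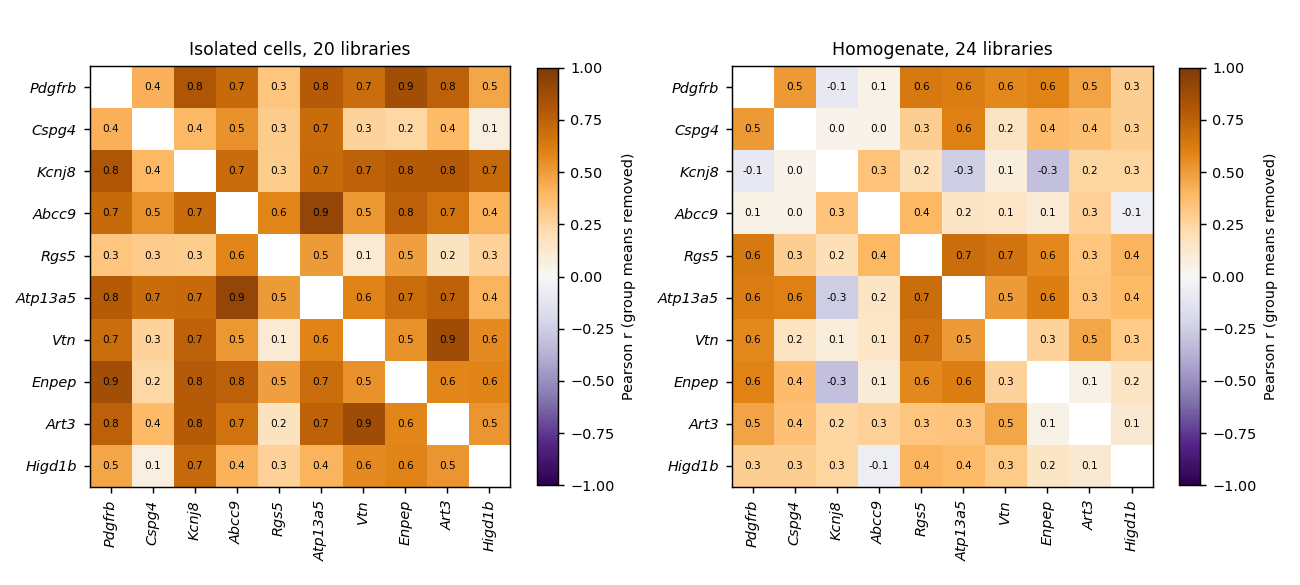
Pearson's r between each pair of the 10 genes over 20 isolated libraries (left) and 24 homogenates (right), after subtraction of group means from log2 CPM. In isolated cells all 45 values are above 0 with a median of 0.58, and in homogenate 41 are above 0 with a median of 0.29.

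By the same measure, the genes outside the 10 with the highest mean r with them were ranked. Among 9666 genes in isolated libraries the first was Notch3 (mean r 0.73), followed by Ecm2, Slc6a20a, Rgs4, Pde8b, Tns2, Tnks1bp1 and P2ry14, down to 0.66. Of these 8 genes 5 stand on the list of 20 other pericyte genes, which was written with earlier results of these data known. Among 12731 genes in homogenates the first was Adgrf5 (0.52), followed by Ptprb, Kdr, Gja4, Tek, Slco1a4, Abcb1a and Cgnl1, down to 0.45. Of these 8 genes 4 stand on the endothelial list of 12 genes, which was written in the same way. As a description over the same libraries, the mean of the 10 genes had r = 0.96 with the mean of the other pericyte genes in isolated libraries and 0.61 in homogenates. With the endothelial mean r was 0.21 in isolated libraries and 0.78 in homogenates, with smooth muscle 0.21 and 0.66, with fibroblasts 0.43 and 0.37, and with astrocytes 0.29 and 0.38. It was -0.50 and 0.03 with oligodendrocyte precursors, -0.39 and -0.14 with neurons, -0.27 and 0.30 with microglia and -0.13 and -0.11 with oligodendrocytes. With library depth it was 0.14 and 0.02.

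Levels in the fractions of one mouse were then compared over the 20 mice with both. Pearson's r between the isolated and the homogenate residual was below 0 for 9 of the 10 genes, from -0.36 for Enpep to 0.31 for Cspg4. The permutation p was at least 0.106 for Pearson's r in all 10 genes, and at least 0.372 after adjustment over the 10. For Enpep, Spearman's rho was -0.45 with an unadjusted permutation p of 0.0499, and r without the 2 mice farthest from the homogenate median was -0.31. For Vtn the same step turned r from -0.30 to 0.22.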

How the data were processed

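The authors deposited unnormalized counts of reads for each gene symbol. The submitters' processing notes name the build mm10 and the tools HTSeq 0.5.3p9, Bowtie2 2.2.5, cutadapt 1.8, Picard 1.141, bcl2fastq 2.17 and DESeq2, without their order. Per the labels' protocols, libraries were directional and amplified by PCR. Not given in the sources used here are the strand setting, the annotation and how duplicates were treated. The 5 tally lines of each table that name no gene were excluded from totals and tests. They included reads not aligned (37.4% to 90.3% of isolated libraries, 18.0% to 55.2% of homogenates) and reads outside genes (4.05% to 36.2% over all libraries).

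Log2 fold changes came from edgeR 4.0.16 (R 4.3.3) with TMM scaling, its expression filter by group and the robust quasi-likelihood test, each comparison fitted on its own groups with Benjamini-Hochberg adjustment over all genes tested. Standard errors were derived from the F statistic. The steps were tested on simulated data. Levels are CPM without TMM. Alternatives were upper-quartile scaling, DESeq2 1.42.0, limma voom 3.58.1, no expression filter, leaving out each library, leaving out isolated libraries under 1000000 counts, homogenates of mice with both fractions only, the mouse number as a block and, chosen after seeing the data, total counts without TMM. The mouse number pairs the fractions because, per the labels, both come from one animal's suspension; deviations from group means in the 20 pairs had a median r of 0.0496 (-0.0732 to 0.193). No library was a copy of another (r of 0.955 to 0.996 within groups). Whether mice shared cages or batches is not given.

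Positions and exon lengths are from GENCODE M21 (GRCm38). The members, lists and motifs were chosen with earlier results of these data known. Named genes were the 10 members, up to 4 genes per list with the lowest p between fractions in water mice, all PDGF and KATP channel genes, and the 8 genes with the highest mean r per fraction among genes averaging 20 counts or more per library. Other genes are named as chosen after their values were seen. Some genes that this rule would name are not reported here.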

Additional observations from a re-analysis of the deposited data

How the results depend on the processing

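Isolated cells against homogenate gave 10 of 10 genes called higher under every alternative run, in water and in ethanol mice. With the mouse number as a replicate block the count stayed at 10 in both, and the median log2 fold change was 3.04 in water mice and 3.50 in ethanol mice. The block changed no call. For the ratios, flipping signs within mouse pairs changed the p-values but moved none across 0.05. That test gave p = 0.00195 in water and in ethanol mice for Cspg4 to Pdgfrb. For Kcnj8 to Abcc9 it gave p = 0.645 in water and 0.277 in ethanol mice. Ethanol against water in homogenate gave 0 of 10 under every alternative. The one value that changed sign was Atp13a5 in homogenate, which was -0.06 with all libraries and 0.00698 without water mouse 69, and ran down to -0.128 in mice with both fractions and -0.116 without ethanol mouse 78; the cause was not tested. In isolated cells the median over the 10 genes, a description, ran from 0.52 (without ethanol mouse 62) to 0.65 (without ethanol mouse 77). With no single library left out it lay between 0.54 and 0.60. In the fraction comparison of water mice the median of all genes tested was -0.05 with TMM and 0.05 with upper-quartile scaling, where the median of the 10 genes went from 3.02 to 3.12. With no filter, which raised the genes tested from 13434 to 19857, it was -0.25, and the median of the 10 genes was 2.97. The split of called genes moved from 4994 higher and 5418 lower with TMM to 5464 and 4931 with upper-quartile scaling. The labels name no batch. Counting error limits Higd1b, Enpep, Art3 and Kcnj8 most, each of which fell to between 4 and 13 counts in its lowest homogenate.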
